A study of Drosophila melanogaster with 15 samples.

Results

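A group of 31 probe sets had a deposited signal at least 4-fold lower in Drosophila melanogaster embryos without pri than in wt, and near wt in embryos without svb. For 24 of them the pri signal was too low for the fold to be exact, and a loss of at least 4-fold against a level of 32 held for 7 of these 24, beside the 7 measured above that level. They were drawn from the 18769 probe sets of an Affymetrix Drosophila Genome 2.0 array, controls left out. A probe set is a group of short oligonucleotides that read out one transcript or a few related ones. Each chosen probe set had a mean log2 signal of at least 5 in wt embryos and a mean at least 2 lower in pri embryos, with all 5 pri arrays below all 10 svb and wt arrays. Its svb mean lay within 0.5 of the wt mean, and the svb and wt arrays overlapped in range. Probe sets whose wt values matched a row of the authors' table of selected genes were left out. The rule therefore used all 3 genotypes, so that the levels of these probe sets are a description and carry no test here. The files do not pair the 31 probe sets with genes, so they appear under their array identifiers, and nothing can be said of the functions of their transcripts.

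Embryos of 3 genotypes were compared, each as 5 independent samples of 200 whole embryos aged 13 to 15 h after egg laying: pri -/- embryos (allele pri1), svb -/- embryos (allele svbR9) and wt embryos, called pri, svb and wt here. Mutant embryos were recognised with GFP balancer chromosomes and picked by hand, and each sample was hybridized to 1 array. The sex of the embryos is not stated. The probe sets of svb, of pri and of tissue markers are not named in the files used here, so that the labels were not checked against them. RNA of whole embryos cannot separate fewer expressing cells from less RNA in each cell.

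The gene shavenbaby (svb) encodes a zinc finger transcription factor that directs embryonic epidermal cells to grow trichomes, the actin-rich hairs and denticles of the larval cuticle. The gene polished rice (pri) encodes very small peptides, which are needed for Svb to be processed into the shorter form that switches genes on; the unprocessed protein keeps them off. The comparison asks which signals are lower without pri while staying near wt without svb.

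The arrays of svb replicate 4, svb replicate 3 and wt replicate 4 bear on several values below. The median signal of all probe sets was 9.82 on svb replicate 4, against 12.4 to 15.6 on the other svb arrays, 15.1 to 17.5 on the pri arrays and 12.8 to 15.0 on the wt arrays. The ratio of 3′ to 5′ signal of the actin control probe sets, a sign of RNA length, ran from 2.94 to 3.44 in pri, from 2.64 to 3.70 in svb and from 2.87 to 6.07 in wt, and its part in the results was not tested.

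In pri embryos the signals of the 31 probe sets lay below those of both other genotypes, as the rule required. On the log2 scale, the gap between the highest pri array and the lowest other array ran from 0.21 to 7.13 over these probe sets. Their mean signals ran from 4.93 to 157 in pri embryos, from 32.1 to 2069 in svb embryos and from 40.3 to 2221 in wt embryos. The median difference between pri and wt was -2.80 on the log2 scale as measured, but -1.59, a 3.02-fold lower signal, with pri means under a log2 level of 5 set to that level, and -1.89 with an offset of 16 added to all signals. The median over all 8631 probe sets bright enough to be tested was -0.04 as measured. The median difference between svb and wt was 0.10, against -0.01 over all tested probe sets. The mean svb signals ranged from 74.9% to 140.0% of the mean wt signals.

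These levels were chosen by the rule, and the share of the array that met each part of it gives the scale. Of the 8631 tested probe sets, 1.38% were at least 2 lower in pri than in wt on the log2 scale, 8.38% had all 5 pri arrays below the 10 others, and 83.0% had svb within 0.5 of wt. A linear model over all tested probe sets (limma, adjusted p under 0.05) called 23.1% lower in pri than in wt (18.3% higher), 24.7% lower in pri than in svb (21.5% higher), and 4.0% lower and 2.02% higher in svb than in wt. The 31 probe sets were all called in both comparisons of pri, and limma called 0 between svb and wt, also 0 at an unadjusted p under 0.05. With arrays centred on their medians instead, limma placed pri below wt for 2328 probe sets and above it for 1047, against 1990 and 1576 as deposited, and pri below svb for 3053 and above it for 1149, against 2128 and 1855. It then called 201 lower and 174 higher in svb than in wt, against 345 and 174. All 31 met the rule under that scaling too. The rule itself sets the counts of the 31, and nothing is read from them.

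**Figure D1:**
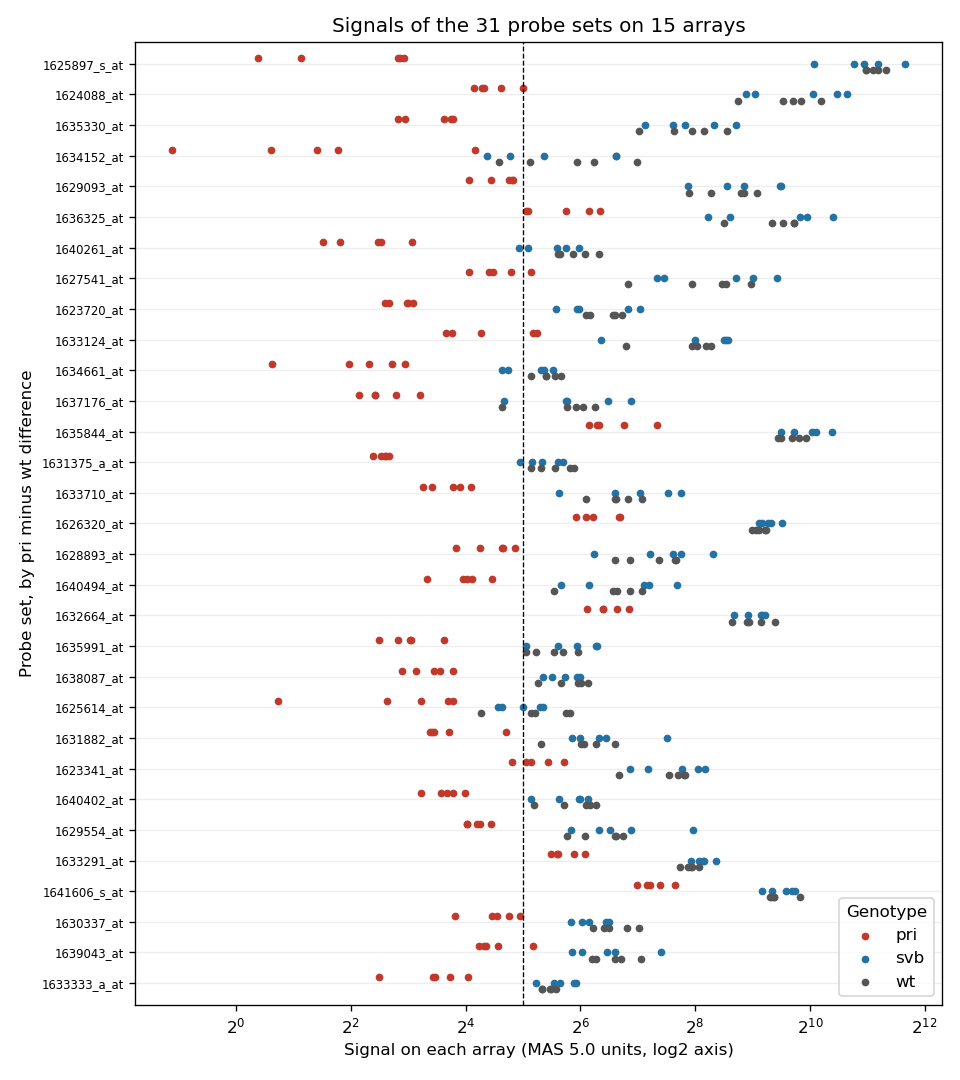
Signal of each of the 31 probe sets (rows, the lowest pri minus wt difference at the top) on each of 15 arrays, on a log2 axis. Points are single arrays, coloured by genotype, with 5 arrays each of pri, svb and wt, and the dashed line marks a signal of 32 (log2 level 5), under which 24 of the 31 pri means lay.

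Many of the pri signals were so low that the size of the loss can only be bounded. The log2 level of 5 is a signal of 32, and it stands in for background here because detection calls were not used. The mean of the log2 signals in pri embryos lay under this level for 24 of the 31 probe sets, and for 20 of them every pri array did. Set against this level, the bounds ranged from at least 1.18-fold to at least 69.1-fold lower, and 7 of the 24 bounds reached 4-fold. The order of signals under the level carries no meaning.

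The probe set with the highest bound was 1625897_s_at. The ending _s_at marks oligonucleotides that match more than 1 transcript, possibly of more than 1 gene. Its signals were 2.19, 1.297, 7.22, 7.64 and 7.05 in pri embryos, 1961, 1069, 3241, 2334 and 1739 in svb embryos, and 2560, 2012, 2013, 2324 and 2193 in wt embryos. All pri arrays were far under the level of 32, while the svb and wt arrays overlapped. The mean signals of 5.08 ± 3.07 in pri and 2221 ± 231 in wt (SD, n = 5 each) give a loss of at least 69.1-fold. The svb arrays varied more than the wt arrays, with a log2 SD of 0.59 in svb and 0.15 in wt. Their lowest value was on replicate 2 and their highest on replicate 3.

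Next came 1624088_at, with signals of 19.5, 17.8, 24.4, 32.01 and 20.05 in pri embryos, 1060, 1600, 470.6, 524.4 and 1419 in svb embryos, and 735.5, 917.3, 833.4, 427.2 and 1170 in wt embryos. The pri arrays all read near or under the level of 32, and the svb and wt arrays overlapped. The signal was at least 24.2-fold lower in pri than in wt. Within svb, replicates 3 and 4 were the low arrays, and within wt it was replicate 4.

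For 7 probe sets both means were above the level, so that their losses could be measured, from 4.48-fold to 12.9-fold with a median of 5.75-fold. The probe set 1636325_at stood at 53.8, 33.3, 70.7, 80.9 and 34.0 in pri embryos, 909.6, 1357, 390.8, 299.9 and 989.8 in svb embryos, and 736.9, 650.4, 847.7, 361.6 and 844.5 in wt embryos, a 12.9-fold lower signal in pri than in wt. The svb arrays fell into high and low values, and the lowest of them was still above every pri array. The probe set 1635844_at read 78.4, 71.4, 161, 80.4 and 109 in pri embryos, 840.3, 1334, 721.4, 1047 and 1104 in svb embryos, and 823.7, 899.2, 719.1, 698 and 979.8 in wt embryos, or 8.57-fold lower in pri than in wt. Its pri replicate 3 was high among the pri arrays and still 2.12 below the lowest other array on the log2 scale.

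Others among the 7 varied less between the arrays of a genotype. The probe set 1626320_at gave 60.9, 74.1, 102, 68.6 and 103 in pri embryos, 571.2, 640.9, 555.1, 727 and 617.7 in svb embryos, and 534.7, 599.9, 552.6, 596.5 and 507.2 in wt embryos. Its log2 SD was 0.15 in svb and 0.10 in wt, the smallest of the 31 in both, and its signal was 6.97-fold lower in pri than in wt. The probe set 1632664_at averaged 90.4 ± 17.2 in pri, 527 ± 78.6 in svb and 520.5 ± 104 in wt (SD, n = 5 each), 5.75-fold lower in pri than in wt. In both probe sets the svb and wt arrays overlapped and no pri array came near them. For 1633291_at the means were 53.8 ± 9.25 in pri, 281 ± 31.8 in svb and 241 ± 19.5 in wt (SD, n = 5 each), a 4.51-fold difference. The probe set 1641606_s_at averaged 157 ± 28.2 in pri, 733 ± 121 in svb and 702 ± 118 in wt (SD, n = 5 each), a 4.48-fold difference. Every pri array of it was above the level of 32, as for 1636325_at, 1635844_at, 1626320_at, 1632664_at and 1633291_at. The last of the 7, 1623341_at, averaged 38.3 ± 9.496 in pri, 207 ± 75.2 in svb and 189 ± 51.7 in wt (SD, n = 5 each).

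**Figure D2:**
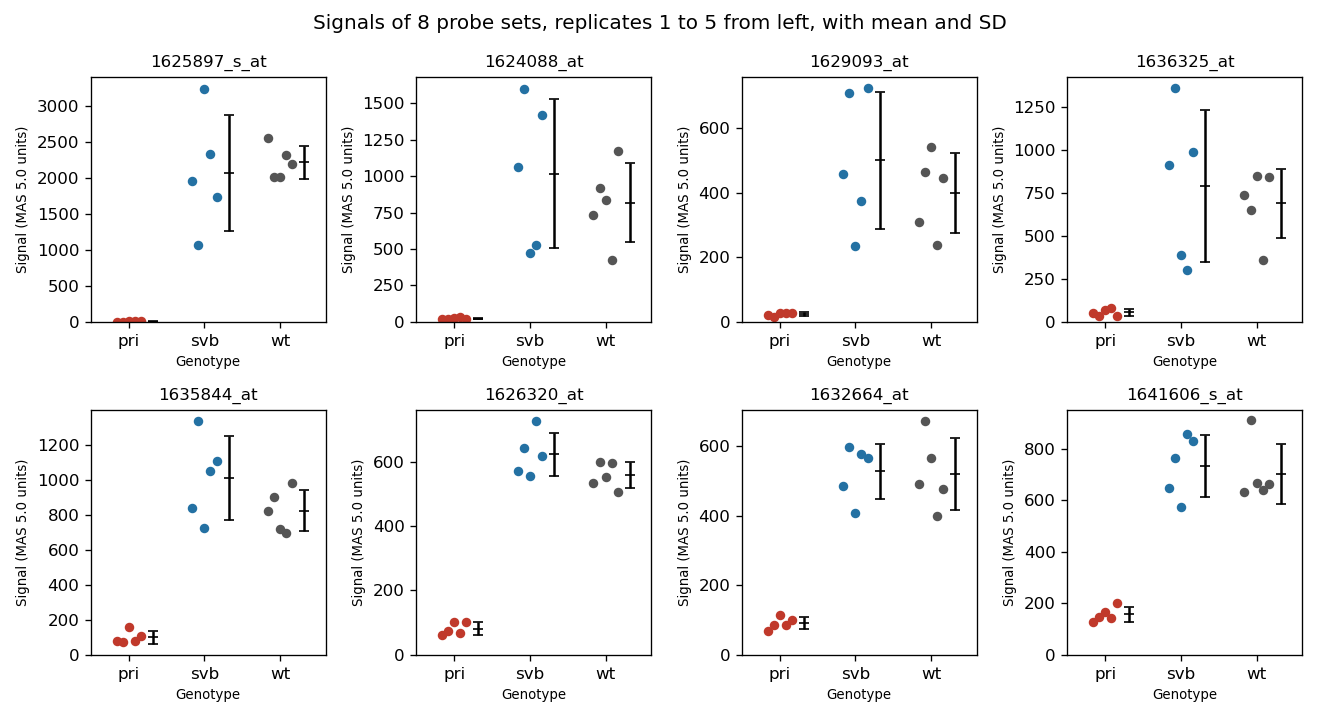
Signal (linear, from 0) of the 8 probe sets with the highest mean wt signal on each array, by genotype, with replicates 1 to 5 from left to right and the mean ± SD (n = 5) beside them. All pri arrays lie below all svb and wt arrays, and svb and wt overlap in each panel. Within svb, 1624088_at spreads from 470.6 to 1600, 1636325_at from 299.9 to 1357 and 1625897_s_at from 1069 to 3241.

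Within a genotype, the arrays were not equal for these probe sets, and 13 of the 31 rose and fell together. Each log2 signal was taken as its deviation from the mean of its genotype, a measure that holds no difference between genotypes, and probe sets were joined by average linkage at a correlation of 0.6 over the 15 arrays. The largest joint group held 13 probe sets with a median pairwise correlation of 0.797, and the 18 others had a median of 0.0569 among themselves, against 0.016 over all pairs of tested probe sets. The grouping was made after the values were seen and has no test. Among the 13 were 1624088_at, 1635330_at, 1629093_at, 1636325_at, 1627541_at and 1637176_at.

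Of the 5 wt arrays, replicate 4 was the lowest for all 13 probe sets. Of the svb arrays, replicate 3 was the lowest for 9 and replicate 4 for the other 4, while replicate 5 was the highest for 8 and replicate 2 for 5. Of the pri arrays, replicate 2 was the lowest for 10, though pri means were under the level of 32 for 11 of the 13. Only wt replicate 4 was thus the same extreme array for all 13. The mean deviation of the 13 probe sets was -0.88 on svb replicate 3 and -0.56 on svb replicate 4, against 0.56 on svb replicate 2 and 0.76 on svb replicate 5, and it was -0.78 on wt replicate 4. On the same 5 arrays the 18 other probe sets deviated by 0.06, 0.12, 0.11, -0.12 and -0.09 on average.

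The probe set 1629093_at shows the pattern in the signals themselves, at 21.7, 16.6, 28.4, 28.01 and 27.05 in pri embryos, 459.0, 709.7, 233.9, 374.2 and 723.3 in svb embryos, and 309.8, 464.1, 542.9, 236.8 and 446.3 in wt embryos. Its low arrays were svb replicate 3 and wt replicate 4, and every pri array was under the level of 32. The signals of 1635330_at were 7.10, 7.68, 12.4, 13.7 and 13.4 in pri embryos, 226.2, 320.5, 139.5, 196.7 and 420.8 in svb embryos, and 198.7, 286.4, 374.9, 129.7 and 246.5 in wt embryos. Here too svb replicate 3 and wt replicate 4 were the low arrays of their genotypes, and pri arrays were all under the level of 32. For 1627541_at the low arrays read 161.9 and 175.5 among the svb embryos (replicates 3 and 4) and 113.4 in wt (replicate 4), and its highest pri array read 35.0. Nearer to the level of 32, 1637176_at averaged 6.25 ± 1.87 in pri, 68.2 ± 35.9 in svb and 56.5 ± 19.4 in wt (SD, n = 5 each).

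The same arrays were low and high in probe sets of the 13 with smaller differences. The probe set 1633710_at read 10.65, 9.57, 17.2, 13.7 and 14.97 in pri embryos, 131.5, 215.1, 49.2, 96.7 and 184.7 in svb embryos, and 97.0, 98.7, 114, 68.2 and 134 in wt embryos. Its pri arrays were all under the level of 32, which gives a bound of at least 3.12-fold. Its svb mean was 132% of the wt mean, with svb replicates 2 and 5 the highest. The probe set 1628893_at read 19.1, 14.2, 24.8, 25.1 and 29.0 in pri embryos, 196.2, 215.6, 75.7, 148 and 318.7 in svb embryos, and 116, 203.9, 201.5, 97.6 and 165.6 in wt embryos. All its pri arrays were under the level of 32, which gives a bound of at least 4.70-fold. The highest svb mean relative to wt, 140.0%, belonged to 1629554_at, with 18.3 ± 2.32 in pri, 119 ± 75.7 in svb and 85.1 ± 22.6 in wt (SD, n = 5 each). The lowest svb mean relative to wt among the 13 was that of 1639043_at, 98.3%.

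Within genotypes, the median pairwise correlation among the 13 was 0.607 over the 5 pri arrays, 0.894 over svb arrays and 0.878 over wt arrays. Without svb replicate 4 it was 0.816 over the remaining arrays of all genotypes. The 13 were joined by their correlation over these same arrays, so these values follow in part from that choice. In pri, the means of 11 of the 13 were under the level of 32, where the order of signals carries no meaning. Nothing is read from the pri value for this reason. Across the array as a whole, the first principal component of the deviations (43.4% of their variance) was set mainly by svb replicate 4, with a score of -68.5, while svb replicate 3 and wt replicate 4 scored -0.5 and -9.5. The actin 3′ to 5′ ratio was 2.64 on svb replicate 3, 3.49 on svb replicate 4 and 4.84 on wt replicate 4. The part of these array measures in the joint variation was not tested.

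The svb arrays varied more than the wt arrays for the 13 probe sets above. The median log2 SD of the 13 was 0.80 in svb and 0.49 in wt, and the svb SD exceeded the wt SD for all 13. They were joined by these same deviations and moved together, so the 13 do not count as separate observations. For the 18 others the median SD was 0.35 in svb and 0.29 in wt, and the svb SD was the larger for 12 (66.7%). Over all tested probe sets the svb SD was the larger for 65.3%, and nothing is read from these counts. The svb mean was above the wt mean for 12 of the 13, by at most 0.34 on the log2 scale, and for 8 of the 18 others. Nothing is read from these directions, since the rule used svb and wt, and leaving out the authors' table removed 28 probe sets with svb below wt.

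**Figure D3:**
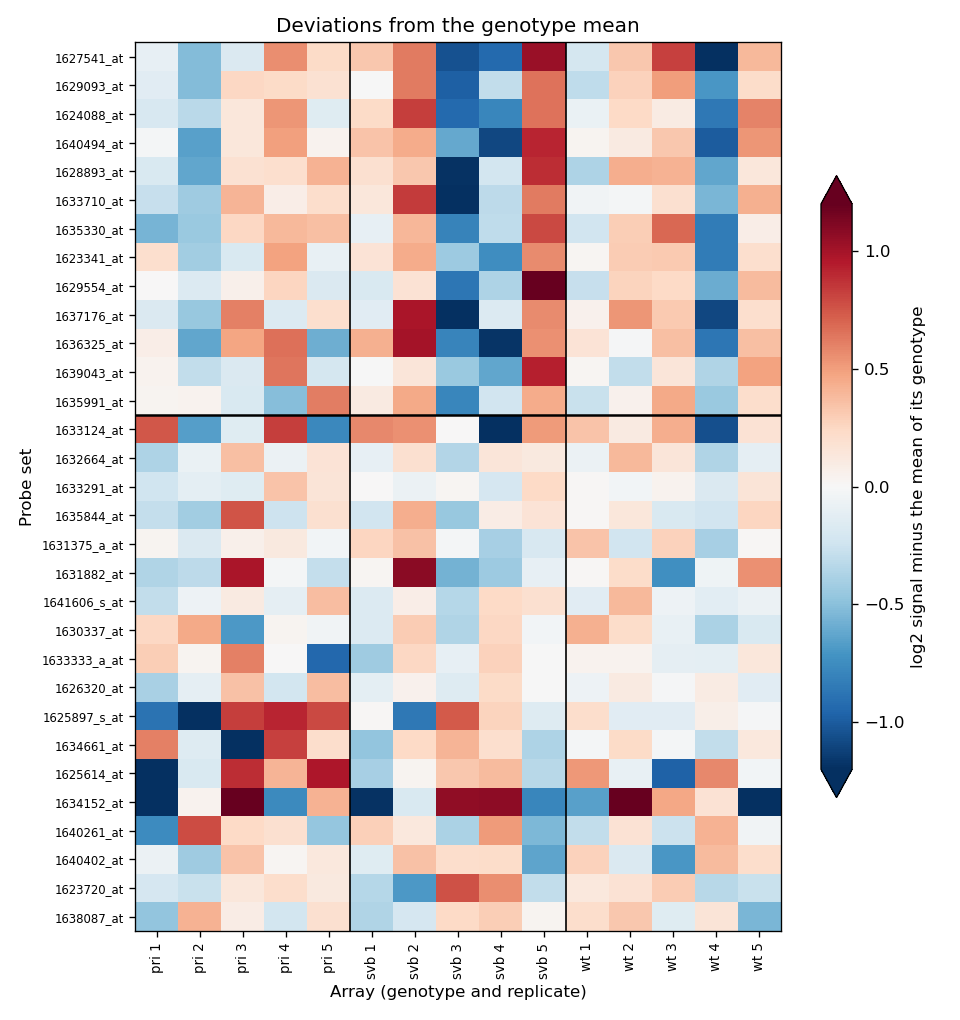
Deviation of each log2 signal from the mean of its genotype, for the 31 probe sets (rows) on the 15 arrays (columns, pri, svb and wt replicates 1 to 5), with colours ending at 1.2 in either direction. The 13 probe sets above the horizontal line share low values on svb replicates 3 and 4 and on wt replicate 4, and high values on svb replicates 2 and 5, and the 18 below it do not share one pattern.

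Most probe sets that shared these deviations were not among the 31. Over the 15 arrays, 132 of the 8631 tested probe sets had a correlation of at least 0.8 with the mean deviation of the 13, and 121 of them were not among the 31. Of these 121, limma called 35 (28.9%) lower in pri than in wt at an adjusted p under 0.05, beside 23.1% of all tested probe sets. It called 20 (16.5%) higher, beside 18.3% of all tested, and the median difference of the 121 was -0.17.

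Gene names are known here for 130 tested probe sets, those of the authors' table, and some of these tracked single probe sets of the 31 within genotypes. Over 15 arrays, 1627541_at had a correlation of deviations of 0.98 with CG15506, 1633124_at of 0.967 with CG12009 and of 0.952 with ImpE1, an ecdysone-inducible gene, and 1636325_at of 0.941 with CG11786. The probe set 1628893_at had one of 0.912 with dusky-like (dyl), which encodes a ZP domain protein of the apical matrix of trichome cells. Like 1633124_at, 1635844_at and 1640402_at lay outside the joint group; 1635844_at had a correlation of 0.9 with CG15370, and 1640402_at of 0.902 with mRpL46, a mitochondrial ribosomal protein gene. For 1625897_s_at no tested probe set of the array went above 0.756. Its log2 SD was 1.19 in pri, 0.59 in svb and 0.15 in wt, so that the pri arrays weigh most in this value. All its pri signals were under the level of 32, where their order carries no meaning. The value therefore cannot show whether any probe set tracked 1625897_s_at. The pri means of 1627541_at, 1633124_at, 1628893_at and 1640402_at were also under this level. Their correlations therefore include pri deviations whose order carries no meaning. The pairs named here share all their arrays, and each was picked from many after the values were seen.

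For some probe sets with wt signals nearer to the level of 32, the pri signals came close to the others. The probe set 1634152_at had signals of 0.461, 2.66, 17.8, 1.515 and 3.44 in pri embryos, 20.6, 41.3, 98.2, 98.8 and 27.2 in svb embryos, and 34.8, 126, 75.4, 61.7 and 23.9 in wt embryos. Its highest pri array and its lowest svb and wt arrays were all under the level of 32, and the bound is at least 1.71-fold. More even was 1623720_at, at 6.36, 6.05, 8.002, 8.45 and 7.92 in pri embryos, 61.1, 47.8, 131, 114 and 63.1 in svb embryos, and 94.3, 97.2, 106, 68.4 and 71.5 in wt embryos. Every pri array was under the level of 32 and every svb and wt array above it, and the bound is at least 2.69-fold. In this probe set svb replicates 3 and 4 were the high arrays, opposite to the 13 that varied together.

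Of the others with low signals, 1640261_at averaged 5.19 ± 2.15 in pri, 45.8 ± 13.6 in svb and 61.1 ± 13.1 in wt (SD, n = 5 each), a loss of at least 1.88-fold in pri. Its svb mean was 74.9% of wt, the lowest such share of the 31. The probe set 1634661_at averaged 4.93 ± 2.38 in pri, 35.8 ± 9.32 in svb and 43.5 ± 5.82 in wt (SD, n = 5 each), at least 1.35-fold lower in pri. Brighter in svb and wt, 1633124_at averaged 23.9 ± 12.3 in pri, 290 ± 127 in svb and 244 ± 78.6 in wt (SD, n = 5 each), at least 7.20-fold lower in pri. It was low on svb replicate 4 and wt replicate 4 but not on svb replicate 3.

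The same numerical rule was met by 28 probe sets of the authors' table. In all 28 the svb mean was below the wt mean, by 0.22 at the median and 0.46 at most on the log2 scale, which the authors' selection of genes lower in both mutants fixed. Among the 31, the svb mean was above wt in 20 and below it in 11, and these 20 are all those of the 59 with svb above wt. The authors' selection thus left every such probe set among the 31, and nothing is read from the contrast between the 31 and the 28. The named genes include dyl, with signals of 264 ± 84.0 in pri, 1401 ± 449 in svb and 1643 ± 309 in wt, and ImpE1, with 152 ± 76.2 in pri, 888 ± 310 in svb and 1029 ± 288 in wt (SD, n = 5 each). A further one was ect, with 185 ± 41.3 in pri, 910.1 ± 177 in svb and 939 ± 193 in wt (SD, n = 5 each). The pri means were under the level of 32 in 24 of the 31 and in 2 of the 28, and the sizes of their losses were not compared for this reason. Of the 28, 8 had a correlation of at least 0.8 with the mean deviation of the 13 probe sets above.

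Among the 11 probe sets whose svb mean was below wt, 10 had mean wt signals from 40.3 to 98.4, and the exception was 1625897_s_at at 2221. Among the 20 with a higher svb mean, wt signals ran from 43.4 to 824. The 28 of the authors' table had mean wt signals from 145.6 to 2451. The paper states that its selection was limited to genes with significant expression in wt embryos. The part of that limit in these ranges was not tested.

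**Figure D4:**
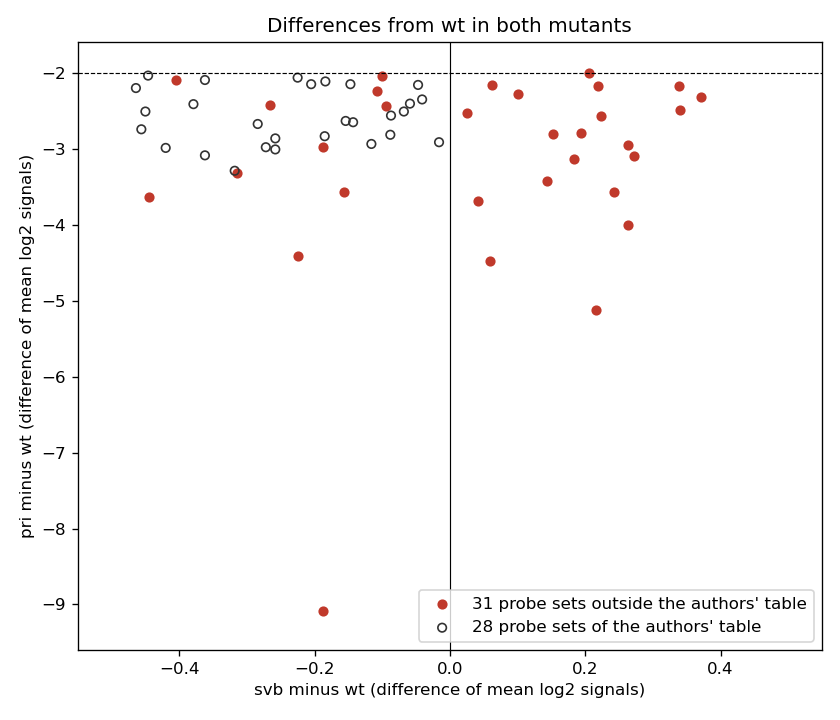
Difference of mean log2 signals between svb and wt (horizontal) and between pri and wt (vertical) for the 31 probe sets and for the 28 of the authors' table that meet the same numerical rule, with a dashed line at -2. The 28 all lie left of 0, as the authors' selection fixed, which left all probe sets with svb above wt among the 31. Of the 31, 20 lie right of 0, and 1625897_s_at stands lowest as measured, at -9.09.

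The limits of the rule, set on the signals as measured, cut through a continuous range. Just inside the limit of -2 were 1633333_a_at at -2.01, 1639043_at at -2.04, 1630337_at at -2.09, 1641606_s_at at -2.16 and 1633291_at at -2.17. Their neighbours just outside, meeting the rest of the rule, were 1640845_at at -1.995, 1632404_at at -1.97, 1624623_at at -1.96, 1634287_at at -1.94 and 1639443_at at -1.93. In all, 30 further probe sets lay between -2 and -1.5. The last of those neighbours, 1639443_at, averaged 534 ± 89.9 in pri, 2047 ± 384 in svb and 2021 ± 192 in wt (SD, n = 5 each). On the side of svb, 1633545_at (-0.52), 1628560_at (0.58) and 1634259_at (0.64) were the nearest left out by the limit of 0.5, and 1634241_at, with a mean wt log2 signal of 4.98, the nearest left out by the level of 5. One probe set, 1640217_at, met all but the separation of the arrays. How firmly single probe sets met the rule also varied. Of the 31, 10 met it with every single array left out and under each other scaling and offset tried: 1625897_s_at, 1624088_at, 1635330_at, 1636325_at, 1623720_at, 1635844_at, 1626320_at, 1628893_at, 1632664_at and 1641606_s_at. At the other end, 1640261_at, 1639043_at and 1633333_a_at met it in 11 of the 15 cases with 1 array left out.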

How the data were processed

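Total RNA of 15 samples (5 each of pri, svb and wt) was hybridized to 1 array each. The authors deposited linear array intensities, summarised per probe set by MAS 5.0 in Affymetrix Expression Console 1.1 and scaled to a trimmed mean of 100 on each array. This scaling holds overall signal equal between genotypes and leaves dim values unstable. A second deposited table holds intensities of 149 rows of genes they chose, with no fold changes, and was used only to find and name listed probe sets: all matched the wt values of 148 probe sets (relative tolerance 1e-05). Genome build and scan batches were not given in the sources used here. The number of arrays limits the precision.

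Signals were taken to log2 without an offset. The 183 array controls were left out. Probe sets with a highest group mean of at least 5 were tested (8631), with limma 3.58.1 in R 4.3.3 (1 model of 3 group means, eBayes with a trend, Benjamini-Hochberg adjustment), checked on simulated data. Folds are ratios of geometric means; percentages of wt are ratios of mean signals. Python 3.11.15 and scipy 1.17.1 were used for the rest. The members, limits and gene lists were chosen with earlier results of these data known. Named were the 12 probe sets with the lowest measured difference, the 8 with the highest wt mean and the 5 just inside the limit, with others named for a stated value after it was seen. The gene lists, cell type markers and chromosomal positions could not be used without gene names. Alternatives were quantile normalization, median centring, an offset of 16, other filters and limits, array weights, a replicate block and leaving out each array.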

Additional observations from a re-analysis of the deposited data

Results flagged for a closer look

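A single array stood far from the other 4 of its genotype in 5 of the 93 sets of 5 arrays examined (31 probe sets in 3 genotypes), on the log2 scale. This is 5.38%, and chance alone flags about 1 in 20. The probe set 1633124_at had a low signal of 81.7 on svb replicate 4, where the other svb arrays ran from 255.7 to 379.7. It also had a low signal of 111.1 on wt replicate 4, where the others ran from 247.7 to 311.3. On the same wt array 1623341_at read 101.4 against 185.5 to 226.1. The probe set 1631882_at was high on pri replicate 3, at 26.1 against 10.35 to 13.06 on the other pri arrays. The probe set 1641606_s_at was high on wt replicate 2, at 910.4 against 631.5 to 667.1.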

How the results depend on the processing

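The rule gave 31 probe sets, and all 31 were kept with quantile normalization (35 in all) and with median centring (40 in all). An offset of 16, which compresses dim signals, left 14, a filter at 6.5 left 18, and no filter gave 62. A limit of -1.5 gave 61 and one of -2.5 gave 19. Leaving out 1 array at a time gave 26 to 34, the fewest without svb replicate 3, and 18 of the 31 met the rule in all 15 cases. The median difference between pri and wt was -2.95 to -2.74 without single arrays and -1.89 with the offset of 16. With median centring the median of all tested probe sets between pri and wt was -0.24 instead of -0.04. It gave 1047 probe sets higher and 2328 lower in pri than in wt (1576 and 1990 in the reported fit), 1149 higher and 3053 lower in pri than in svb (1855 and 2128), and 201 lower and 174 higher in svb than in wt (345 and 174). For svb against wt, the filter at 6.5 gave 218 lower and 103 higher and array weights gave 569 and 348. Without single arrays the counts lower and higher were 1553 to 2154 and 1345 to 1809 for pri against wt, 1743 to 2185 and 1655 to 1936 for pri against svb, and 231 to 372 and 122 to 197 for svb against wt. The causes were not tested. With the replicate block limma called 1843 down and 1518 up in pri against wt, 2000 and 1768 in pri against svb, and 273 and 138 in svb against wt. Same-numbered arrays of different genotypes deviated together in 7 of 15 pairs (correlation over 0.1), and the 15 correlations ran from -0.61 to 0.37. The same-numbered array was the best match in 3 of the 15. The reported fit did not pair the samples by number. These values cannot decide whether same-numbered samples were handled together. Counts by gene list and chromosome were not run because the probe sets have no gene names here.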
